A study of Mus musculus with 4 samples.

Results

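Gm42418, AY036118 and Lars2 are 3 mouse genes whose annotated exons hold, or are known to resemble in part, sequence of ribosomal RNA. They were chosen by symbol from a table of 55536 genes because reads counted for them may come from residual ribosomal RNA in libraries made from polyadenylated RNA, and the choice was made with their levels known. All 3 are in the table, and 2 of them had counts. Their levels are therefore given as a description, with no p-value.

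Islets of Langerhans, the clusters of endocrine cells that make insulin and other hormones, were taken from C57BL/6 mice that were male and 8 weeks old, and the labels name no transgene or mutation. Bulk RNA was prepared with a KAPA mRNA kit, and there were 2 non-depleted libraries and 2 insulin-depleted libraries, the latter treated during library preparation with a DepleteX panel of Jumpcode Genomics against insulin transcripts. The labels call the libraries of each group biological replicates 1 and 2, but they do not say which mice each came from or whether islets were pooled, so the spread between libraries may be partly technical. The non-depleted libraries held 50605417 and 60528485 counts in all, and the insulin-depleted libraries 19316173 and 65030111.

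In mammals, RNA polymerase I transcribes repeated ribosomal DNA into a long precursor, from which the 18S, 5.8S and 28S RNAs are cut and the spacers between them are discarded. Ribosomal RNA makes up most of the RNA of a cell and has no poly(A) tail in its mature form, so selection on oligo(dT) removes most of it, and what is carried over is assigned to whichever annotated gene contains a matching copy. Gm42418 and AY036118 are annotated as long non-coding RNAs over one such copy on chromosome 17. Lars2 encodes the leucyl-tRNA synthetase of mitochondria, which charges the leucine tRNAs used to translate mitochondrially encoded proteins.

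Gm42418 (ENSMUSG00000098178) is annotated on the plus strand at chr17:39846958-39848788 of GRCm38 and is 1831 bases long. RefSeq places an 18S ribosomal RNA gene, Rn18s-rs5, at chr17:39846354-39848202 of the same assembly, and 1245 bases of Gm42418 lie inside it. A ribosomal RNA transcript of the gene CT010467.1, annotated on the opposite strand, sets the end of 18S 1 base earlier, and by that end the first 1244 bases of Gm42418 (67.9% of its length) are 18S sequence. The other 587 bases (32.1%) follow it, where the ribosomal precursor has a spacer. The bases on either side of that end are shown because they mark where the single-exon transcript of Gm42418 passes from 18S into the following sequence. Capitals are the last 40 bases of 18S, and the plus strand at chr17:39848162-39848241 is printed 5′ to 3′.
Gm42418: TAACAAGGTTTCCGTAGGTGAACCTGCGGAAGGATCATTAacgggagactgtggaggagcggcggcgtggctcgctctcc
The 18S portion had a GC content of 55.1% and the portion after it 71.0%, and Lars2 mRNA had 51.2%.

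AY036118 (ENSMUSG00000105361) is annotated on the minus strand at chr17:39847113-39848035 and is 923 bases long. All of it lies opposite Gm42418, and the 2 sequences were 100% identical over 923 bases on opposite strands. The first 40 bases of AY036118 are shown with the bases of Gm42418 that face them, at chr17:39847996-39848035, to make the antisense relation visible.
AY036118: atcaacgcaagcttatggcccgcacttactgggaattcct
Gm42418: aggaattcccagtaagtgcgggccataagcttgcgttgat
Of the 1801 stretches of 31 bases in Gm42418, 1735 (96.3%) also occurred in a transcript of another annotated gene, on either strand, and 893 of these occurred in AY036118. Every one of the 893 stretches of AY036118 was shared.

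Lars2 (ENSMUSG00000035202) lies at chr9:123366927-123462666 on the plus strand and is protein coding. In contrast to Gm42418, it shared only 103 of 11160 stretches of 31 bases (0.923%) with other transcripts. The gene that shared the most of these stretches shared 38, and Gm15564, treated next, shared 22. One shared part lies in its last exon, exon 21 of 21, within the 3′ UTR of Lars2 and 370 bases after the stop codon. There, 72 bases at chr9:123462048-123462119 matched a transcript of the non-coding gene Gm15564 at 98.6% identity, with a single difference, A53T, in which the Lars2 base stands first and positions are counted from 1 at the first base of the shared stretch. Part of the stretch is shown for both genes because it is a place where a read could be assigned to either, and the capital marks the base that differs. The Lars2 bases are chr9:123462086-123462115 on the plus strand, and those of Gm15564 are its second exon, chr16:35981725-35981795 on the minus strand.
Lars2: gaacgtgagctgggAttagaccgtcgtgag
Gm15564: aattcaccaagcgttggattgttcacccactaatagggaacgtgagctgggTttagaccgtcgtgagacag
A longer segment of the same 3′ UTR, chr9:123461933-123462119, aligned to the gene AA474408 at 80.1% identity over 196 aligned positions. This stretch is known to resemble 28S ribosomal RNA. No 28S reference was used here, so its identity to 28S was not computed.

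Gm42418 was among the most counted genes of every library. It received 302062 and 617907 counts in non-depleted libraries 1 and 2, and 120053 and 672923 counts in insulin-depleted libraries 1 and 2. On the scale of CPM, counts scaled to a common library total that leaves out Ins1 and Ins2, its levels were 6227 and 10630 CPM in the non-depleted and 6227 and 10375 CPM in the insulin-depleted libraries. The library numbered 2 was the higher one in both groups, and the groups overlapped. By raw counts it ranked 6th and 4th of all genes in the non-depleted libraries, and 4th and 3rd in the insulin-depleted ones. Its share of counts without insulin was 0.623% in non-depleted library 1, with an exact Clopper-Pearson 95% interval of 0.6205 to 0.6249%, and 1.06% in non-depleted library 2, with an interval of 1.060 to 1.066%. In the insulin-depleted libraries the shares were 0.623% (0.6192 to 0.6263%) and 1.04% (1.035 to 1.040%). The intervals hold counting error alone and treat each count as independent. Low counts in this table were mostly even numbers, so the intervals may be too narrow. Within each group the intervals of the 2 libraries do not meet.

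AY036118 had 0 counts in all 4 libraries, although Gm42418 holds its complement base for base. For a gene that can receive counts, the highest level that a 0 allows, taken as 3 counts, was 0.0618 and 0.0516 CPM in the non-depleted and 0.156 and 0.0463 CPM in the insulin-depleted libraries. None of its 923 bases is free of another annotated gene on its own strand, since the ribosomal RNA gene CT010467.1 spans it. Of the 765 genes of the table that are wholly covered in this way on their own strand, all 765 (100%) had 0 counts in every library. Among genes wholly covered by exons on the opposite strand alone, 198 of 460 (43.0%) were at 0. Among genes with any other overlap, 1825 of 10671 (17.1%) were at 0. Among genes sharing no exon base with another, 22451 of 43640 (51.4%) were. The 0 of AY036118 thus belongs to a class of annotations that received no counts at all in this table, and it says nothing about whether its RNA was present.

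Lars2 received 26185 and 53175 counts in the non-depleted libraries and 9703 and 58242 in the insulin-depleted libraries. Its levels were 540 and 915 CPM, and 503 and 898 CPM, in the same order. As for Gm42418, library 2 of each group was the higher one and the groups overlapped. Its rank by counts was 188th and 63rd in the non-depleted libraries, and 211th and 64th in the insulin-depleted libraries.

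**Figure D1:**
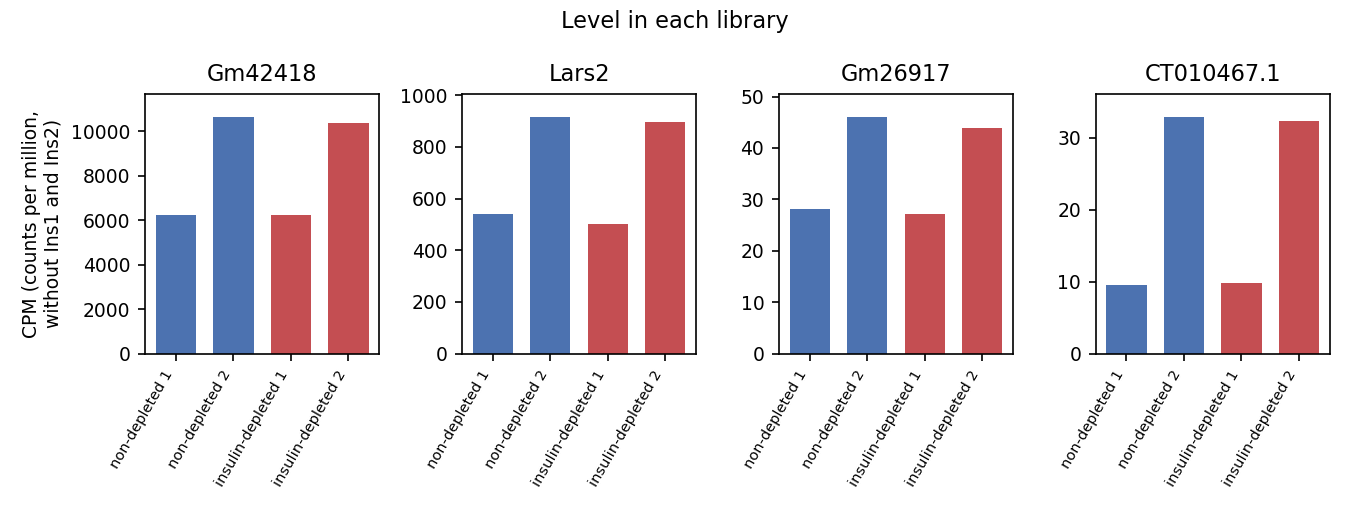
Level of Gm42418, Lars2 and the neighbouring annotations Gm26917 and CT010467.1 in CPM of the total without Ins1 and Ins2, with 1 bar per library, non-depleted in blue and insulin-depleted in red, and a separate linear axis from 0 for each gene. Gm42418 stands at 6227 CPM in both libraries numbered 1 and at 10375 CPM or more in both numbered 2, and the other 3 genes show the same order.

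Insulin depletion did not separate the groups. Mean levels of Gm42418 were 8428 ± 3114 CPM (SD, n = 2) in non-depleted and 8301 ± 2933 CPM (SD, n = 2) in insulin-depleted libraries, a log2 ratio of -0.02. For Lars2 the means were 727 ± 265 and 701 ± 279 CPM (SD, n = 2 each), a log2 ratio of -0.05. Both differences were far smaller than the spread between libraries of a group. Within library number, the log2 ratio of insulin-depleted to non-depleted for Gm42418 was 0.00 for number 1 and -0.04 for number 2, and for Lars2 it was -0.10 and -0.03. The ratio of the group means turned with the libraries that entered it, since leaving out 1 library leaves the numbers unbalanced between groups. It then also holds the difference between numbers 2 and 1. For Gm42418 it was -0.36 without non-depleted library 1, 0.41 without non-depleted library 2, 0.30 without insulin-depleted library 1 and -0.44 without insulin-depleted library 2. For Lars2 the same 4 values were -0.38, 0.38, 0.30 and -0.53. Other scalings of the totals placed the ratio between -0.03 and 0.03 for Gm42418 and between -0.06 and 0.00 for Lars2, so its sign depended on the scaling.

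Across all genes, edgeR's quasi-likelihood test with Benjamini-Hochberg adjustment tested 19723 genes and called 2 of them, Ins1 and Ins2, both lower after depletion, which is 0.0101% of the genes tested. Neither of the 2 members tested was called, as for all genes but Ins1 and Ins2, so this tells nothing particular about them. The fit leaves out the replicate number, so differences between numbers count as error and it may call too few genes. AY036118 was not tested because it had no counts.

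The difference between the libraries numbered 2 and 1 was the main variation of the members. Gm42418 was 1.71-fold higher in library 2 than in library 1 of the non-depleted group and 1.67-fold higher in the insulin-depleted group. Lars2 was 1.69-fold and 1.78-fold higher. The mean log2 ratio of number 2 to number 1 over the 2 groups was 0.75 for Gm42418 and 0.80 for Lars2. Over the 10008 genes that averaged 10 CPM or more, the median of this ratio was 0.02, and the 5th to 95th percentiles ran from -0.31 to 0.40. Only 57 genes (0.570%) had a higher ratio than Gm42418, and 45 (0.450%) had a higher one than Lars2. The number is all that the labels give to tell these libraries apart, so no source of the difference can be named from them.

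**Figure D2:**
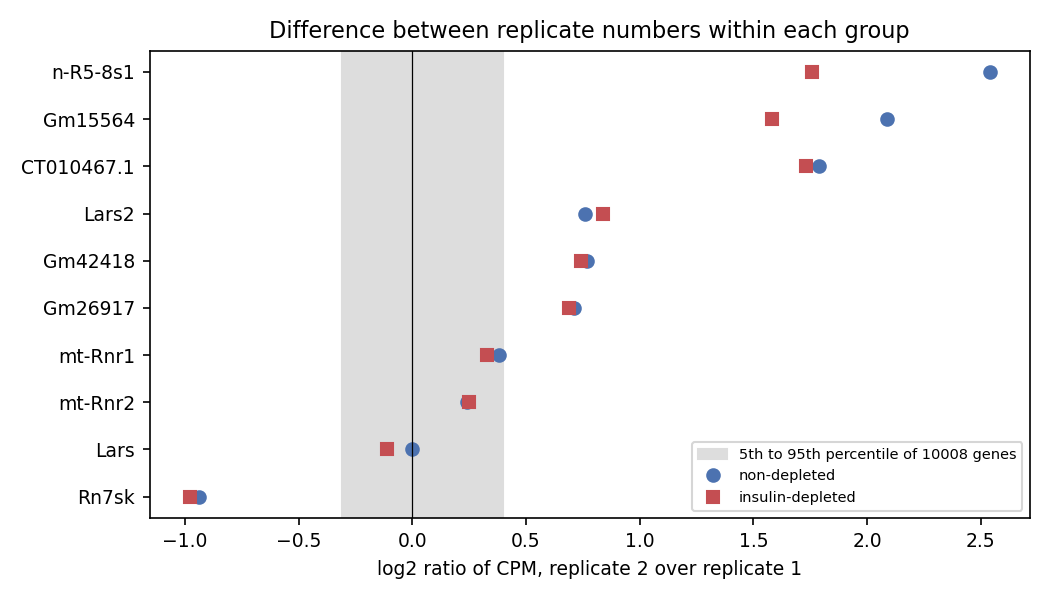
The log2 ratio of CPM in library 2 over library 1 for Gm42418, Lars2 and related genes, with a blue circle for the non-depleted and a red square for the insulin-depleted group. The grey band spans the 5th to 95th percentiles, -0.31 to 0.40, of the mean ratio over 10008 genes, and Gm42418 and Lars2 lie to its right in both groups.

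Other transcripts also differed by library number, and their values stand beside those of the members. Markers of acinar cells, the enzyme-secreting cells of the exocrine pancreas, summed to 10562 and 4233 CPM in the non-depleted libraries and to 10568 and 4249 CPM in the insulin-depleted libraries. All 7 of 7 acinar markers were lower in both libraries numbered 2, opposite in direction to Gm42418 and Lars2. Beta-cell markers, with 5 of 7 higher and 2 lower in both libraries numbered 2, summed to 19703 and 18415 CPM in non-depleted and 19385 and 18562 CPM in insulin-depleted libraries. Other marker sums were higher in both libraries numbered 2, as the members were. Endothelial markers summed to 777 and 860 CPM, and to 784 and 860 CPM, with 3 of 4 higher and 0 lower. Immune markers summed to 53.3 and 64.9 CPM, and to 47.6 and 66.5 CPM, with 3 of 4 higher and 1 lower. Erythroid markers summed to 6.39 and 7.57 CPM in the libraries numbered 1 and to 10.4 CPM or more in those numbered 2, with 2 of 3 higher and 0 lower. Schwann cell markers summed to 18.2 and 20.8 CPM, and to 18.3 and 20.5 CPM. Sums of alpha, delta and gamma, ductal, and stellate markers were lower in both. No marker of any cell type list was at 0 in every library. The part of these cell types in the difference of the members was not tested, and in bulk RNA fewer cells of a type and less RNA per cell cannot be told apart.

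Gm42418 and Lars2 kept a nearly fixed proportion. The ratio of Gm42418 to Lars2 counts was 11.5 and 11.6 in the non-depleted libraries and 12.4 and 11.6 in the insulin-depleted libraries, while each gene alone was at least 1.67-fold higher in library 2 than in library 1. The genes of at least 50 CPM whose profiles over the 4 libraries lay nearest to Gm42418 were Pnmal2, Cplx2 and March4, at Euclidean distances of 0.0615, 0.0618 and 0.0638 between mean-centred log2 values. Lars2 itself lay at 0.0839 from Gm42418. For Lars2 the nearest were Dcdc2a at 0.0256, March4 at 0.0263 and Pnmal2 at 0.0274. These genes were picked for their likeness out of 4737 genes, so the selection itself set their order of libraries. Cplx2 encodes a complexin that regulates vesicle fusion. It had 449 and 724 CPM in the non-depleted and 431 and 721 CPM in the insulin-depleted libraries. March4, which encodes a membrane-bound ubiquitin ligase, had 50.2 and 86.2 CPM, and 47.6 and 83.3 CPM. These distances rest on 4 libraries and describe the order of levels only.

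Gm42418 lies in a cluster of annotations for 1 ribosomal DNA copy, and its level stood far above those of its neighbours. Gm26917 (chr17:39843013-39846341, plus strand), whose end is 617 bases before the start of Gm42418, had 28.1 and 46.0 CPM in the non-depleted and 27.2 and 43.8 CPM in the insulin-depleted libraries. Its GC content was 69.1%, and its level was 1.64-fold and 1.61-fold higher in library 2, close to the ratios of Gm42418. Counts of Gm42418 exceeded those of Gm26917 by 222-fold and 231-fold in the non-depleted and 229-fold and 237-fold in the insulin-depleted libraries. Per length, the excess was between 403-fold and 430-fold.

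CT010467.1, the annotated ribosomal RNA on the minus strand at chr17:39846353-39848827, spans Gm42418 from the opposite strand, and its exons face all but 9 of the 1831 bases of Gm42418. It had 9.54 and 32.9 CPM in the non-depleted libraries and 9.75 and 32.4 CPM in the insulin-depleted libraries. It was thus 3.45-fold and 3.32-fold higher in library 2, a larger ratio than that of Gm42418. Of the counts given to either gene, CT010467.1 took 0.153% and 0.309% in the non-depleted and 0.156% and 0.311% in the insulin-depleted libraries. The 18S sequence reads in the sense direction on the plus strand, the strand of Gm42418, so CT010467.1 and AY036118 are annotated antisense to it. Use of strand in counting is not stated in the sources used here. Although nearly all bases of Gm42418 are shared with CT010467.1, its counts were 652-fold and 323-fold those of CT010467.1 in the non-depleted and 639-fold and 320-fold in the insulin-depleted libraries, so the table did not treat the strands alike.

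**Figure D3:**
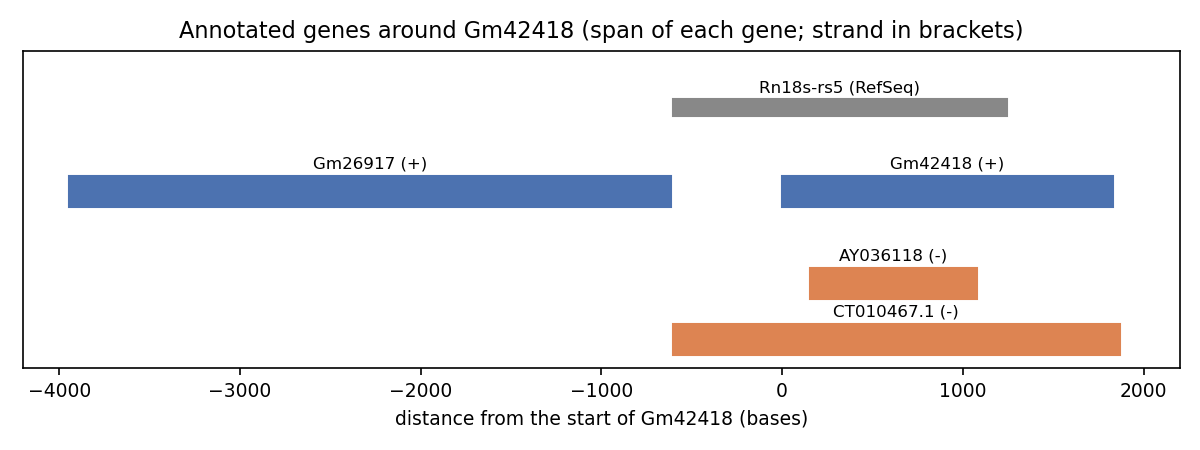
Spans of annotated genes around Gm42418 drawn to scale, with distance from the start of Gm42418 in bases on the x axis, plus-strand genes in blue, minus-strand genes in orange and the RefSeq 18S gene Rn18s-rs5 in grey. AY036118 lies wholly inside both CT010467.1 on its own strand and Gm42418 on the opposite strand.

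The other annotations within 100 kb of Gm42418 were nearly silent. CT010467.2 had 0 counts in every library, and AC188608.1 had 1 count in non-depleted library 2 and 0 in the other libraries. The flanks of Lars2 did not share its order of libraries. Limd1, which encodes a LIM-domain scaffold protein, lies 16040 bases from Lars2 and had 91.8 and 69.4 CPM in the non-depleted and 90.9 and 71.7 CPM in the insulin-depleted libraries, lower in library 2 of each group where Lars2 was higher. Sacm1l, which encodes a phosphoinositide phosphatase, likewise had 148 and 133 CPM, and 151 and 127 CPM. The pseudogene Scp2-ps2 had at most 142 counts in a library, and Gm47162 had 0 in all. None of these neighbours was called between insulin-depleted and non-depleted libraries.

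An annotated ribosomal RNA gene elsewhere and the genes that match the Lars2 3′ UTR were also higher in the libraries numbered 2. Gm15564 and AA474408 are named here after their values were seen. The gene n-R5-8s1, annotated as 5.8S ribosomal RNA, had 0.783 and 4.54 CPM in the non-depleted and 1.14 and 3.85 CPM in the insulin-depleted libraries. It was 5.80-fold and 3.38-fold higher in library 2. Gm15564, which shares the stretch with the Lars2 3′ UTR printed above, had 6.91 and 29.3 CPM, and 9.03 and 27.1 CPM, and was 4.25-fold higher in library 2 of the non-depleted group. Gm15564 was therefore higher in the same libraries as Lars2, by a larger ratio in both groups. AA474408 had 1.07 and 1.58 CPM, and 1.35 and 1.60 CPM, from only 52 and 92, and 26 and 104 counts. It was 1.48-fold and 1.19-fold higher in library 2, smaller ratios than those of Gm15564.

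The list of genes annotated with the ribosomal RNA biotype held 354 genes, of which 285 were at 0 in all libraries. They summed to 13.1 and 42.0 CPM in the non-depleted and 14.1 and 40.3 CPM in the insulin-depleted libraries in all, against 6227 to 10630 CPM for Gm42418 alone. After CT010467.1 and n-R5-8s1, the highest of them were Gm24601, at 0.124 and 2.10 CPM, and 0.415 and 1.54 CPM, and Gm23084, which at 0.289 and 0.103 CPM, and 0.259 and 0.108 CPM, was lower in library 2. Of the 5 of them that were tested, 1 lay above and 4 below 0 in log2 fold change on insulin depletion, with a median of -0.03, and none was called. The median over all genes tested was -0.002.

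Ribosomal RNAs of the mitochondrion carry short A-tails and are read in polyadenylated libraries. The 12S gene mt-Rnr1 had 197 and 256 CPM in the non-depleted and 194 and 243 CPM in the insulin-depleted libraries, 1.30-fold and 1.26-fold higher in library 2. The 16S gene mt-Rnr2 had 753 and 893 CPM, and 748 and 891 CPM, 1.18-fold and 1.19-fold higher. Per length, Gm42418 exceeded mt-Rnr1 by 16.5-fold and 21.6-fold in the non-depleted and 16.8-fold and 22.2-fold in the insulin-depleted libraries. It exceeded mt-Rnr2 by 7.14-fold and 10.3-fold, and by 7.20-fold and 10.1-fold. The ratio by library number was thus smaller for mitochondrial ribosomal RNAs than for Gm42418 in both groups.

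Other RNAs made without a poly(A) tail did not move together. Rn7sk, the 7SK RNA that holds the elongation factor P-TEFb inactive, had 60.2 and 31.3 CPM in the non-depleted and 65.6 and 33.3 CPM in the insulin-depleted libraries, lower in library 2 by ratios of 0.520 and 0.508. The list of 28 such RNAs, most of its signal from Rn7sk, summed to 64.9 and 37.0 CPM, and to 70.0 and 38.7 CPM, the opposite order to Gm42418. Scarna2, a small RNA of Cajal bodies, lay between 2.59 and 2.89 CPM. Rny1, a Y RNA, had 0.247 and 0.860 CPM, and 0.207 and 0.617 CPM, higher in library 2 as Gm42418 was, and Terc, the RNA of telomerase, lay between 0.206 and 0.726 CPM. Malat1, a nuclear long non-coding RNA, was level at 6057 and 5976 CPM, and 5987 and 5948 CPM. In CPM not divided by length, Gm42418 thus lay close to Malat1 in the libraries numbered 1 and well above it in those numbered 2. Per kilobase of exon it lay well above Malat1 in every library. Gm42418 had 3401 and 5806 CPM per kilobase in the non-depleted and 3401 and 5666 in the insulin-depleted libraries. Malat1 had 867 and 856, and 857 and 852.

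Genes that make and process ribosomal RNA were nearly level in sum across the libraries that differed in Gm42418. The 23 genes of RNA polymerase I and its factors summed to 1178 and 1196 CPM in the non-depleted libraries and to 1176 and 1208 CPM in the insulin-depleted libraries. Among the 23, the mean log2 ratio of number 2 to number 1 ran from -0.36 for Polr2l to 0.48 for Cd3eap. Ubtf, the upstream binding factor of ribosomal DNA, had 157 and 171 CPM, and 158 and 172 CPM. Rrn3, which recruits the polymerase to the promoter, had 86.5 and 79.9 CPM, and 87.6 and 82.1 CPM. Baz2a, a subunit of the nucleolar remodelling complex that silences ribosomal DNA, had 192 and 221 CPM, and 198 and 226 CPM, and its partner Smarca5 lay between 197 and 208 CPM in all libraries. None of the 23 was called on insulin depletion, with 11 above and 12 below 0.

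The 32 genes of ribosomal RNA processing and the nucleolus summed to 3216 and 3217 CPM, and to 3226 and 3186 CPM. Nucleolin (Ncl) had 1025 and 1036 CPM, and 1027 and 1025 CPM, and Npm1, the nucleolar chaperone nucleophosmin, had 560 and 596 CPM, and 567 and 586 CPM. The helicase gene Ddx21 lay between 196 and 202 CPM in all libraries, and Nop58, a core protein of box C/D small nucleolar particles, between 118 and 130 CPM. None of the 32 was called, with 13 above and 19 below 0.

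Lars2 stood apart from the other aminoacyl-tRNA synthetase genes by library number. Lars, the gene of the cytosolic leucine enzyme, was at 179 and 179 CPM in the non-depleted and 185 and 172 CPM in the insulin-depleted libraries. Across the 42 other synthetase genes and partners the mean log2 ratio of number 2 to number 1 had a median of 0.01. It ran from -0.45 for Farsb to 0.34 for Ears2, against 0.80 for Lars2. The 21 other genes of mitochondrial synthetases and partners summed to 708 and 702 CPM, and to 703 and 709 CPM. They were thus level in sum while Lars2 was not. Gars and Kars, whose products serve both the cytosol and the mitochondrion, had 245 and 220 CPM, and 240 and 226 CPM, and 116 and 119 CPM, and 107 and 124 CPM. Iars2 had 79.9 and 83.2 CPM, and 81.9 and 85.5 CPM, and Rars2 had 29.1 and 33.4 CPM, and 30.7 and 33.3 CPM.

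The level of Lars2 was also high for its family when exon length was allowed for. Per kilobase of summed exons it had 48.7 and 82.5 CPM in the non-depleted and 45.4 and 81.0 CPM in the insulin-depleted libraries, with a mean of 64.4. By this mean it ranked 2nd of 22 genes of mitochondrial synthetases and their partners, below Gars at 74.6 and above Kars at 26.1, Gatc at 13.5, Rars2 at 11.4 and Iars2 at 9.30. The median of the other 21 was 2.65 CPM per kilobase, and Lars2 lay 24.3-fold above it. With the longest coding transcript as the length, an alternative chosen after the data were seen, it ranked 1st of 22 and lay 28.5-fold above a median of 6.41. By summed exons the order of Lars2 and Gars turned with the library. Gars had 78.5 and 70.7 CPM per kilobase in the non-depleted and 76.8 and 72.5 in the insulin-depleted libraries, so Lars2 was below it in both libraries numbered 1 and above it in both numbered 2. A table of counts per gene does not say where in Lars2 the reads lay, so reads of the 3′ UTR stretch and of the coding exons cannot be told apart.

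**Figure D4:**
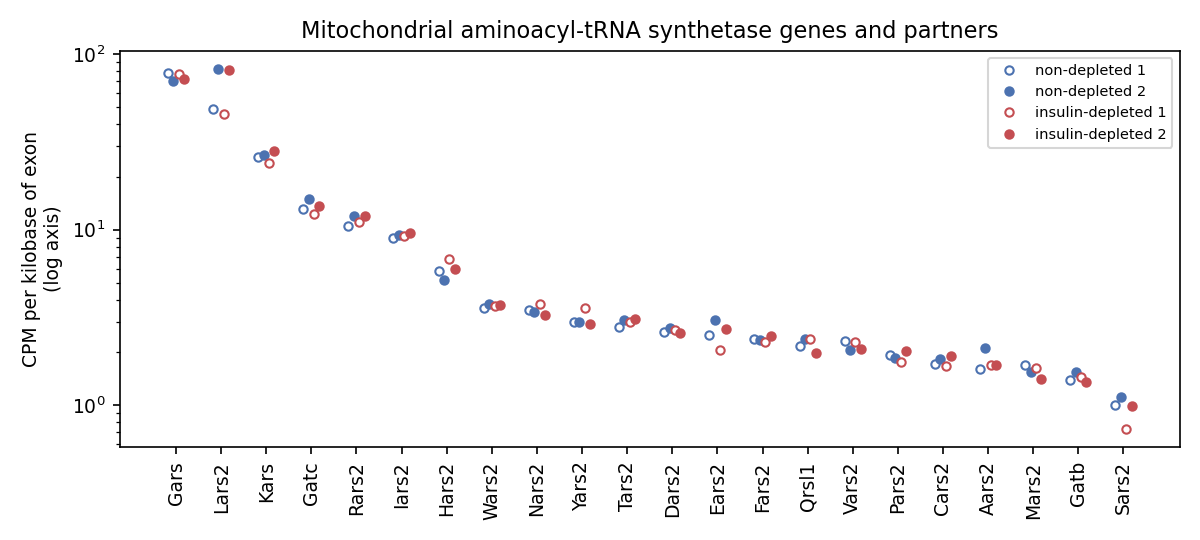
Level per kilobase of summed exons, on a log axis, of the 22 genes of mitochondrial aminoacyl-tRNA synthetases and their partners in order of their mean, with 1 point per library, open for number 1 and filled for number 2, blue for non-depleted and red for insulin-depleted. Lars2 is 2nd, and its filled points, at 82.5 and 81.0 CPM per kilobase, stand above its open points, at 48.7 and 45.4.

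Cytosolic synthetases, which charge the tRNAs of cytosolic ribosomes, were level as a list with their partners, at 3284 and 3231 CPM and 3259 and 3180 CPM. Sars had 533 and 513 CPM, and 525 and 506 CPM, Eprs 479 and 471 CPM, and 476 and 466 CPM, and Aars and Nars lay between 428 and 445 CPM and between 321 and 346 CPM. The 13 mitochondrial translation factors summed to 260 and 256 CPM, and to 267 and 254 CPM. Among them the elongation factor gene Gfm1 lay between 35.1 and 37.4 CPM, the initiation factor gene Mtif2 between 34.4 and 37.9 CPM, the recycling factor gene Gfm2 between 28.3 and 30.2 CPM and Guf1 between 26.2 and 30.1 CPM. The mitochondrial leucine tRNAs mt-Tl1 and mt-Tl2, the substrates of the Lars2 enzyme, had few counts. mt-Tl1 had 0 and 12 counts in the non-depleted and 4 and 0 in the insulin-depleted libraries, and mt-Tl2 had 2 counts in insulin-depleted library 2 and 0 in the other libraries. On insulin depletion, 0 of the 21 genes of mitochondrial synthetases and partners and 0 of the 21 cytosolic ones were called by edgeR's quasi-likelihood test. Of the 13 factors, 0 were called. The medians in this order were -0.00, -0.03 and 0.00 on the log2 scale. In these lists 10, 4 and 7 genes lay above 0 and 11, 17 and 6 below, against 9625 above and 10098 below over all genes tested. Over all genes, 82 had an unadjusted p under 0.05 by this test, and DESeq2 and limma-voom gave 56 and 120. For edgeR these were 82 of 19723 genes tested, which is few. Without the replicate number, differences between numbers count as error, so a gene not called in any list is weak evidence of no change. Without the replicate number in the fit, each of these tools called Ins1 and Ins2 and no other gene. With a replicate block, edgeR's quasi-likelihood test gave 853 genes with an unadjusted p under 0.05. It then called 2 genes higher and 7 lower.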

How the data were processed

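Gene counts of 4 bulk libraries of polyadenylated RNA were analysed. The authors deposited 1 table of whole-number counts per gene, without normalization. Both deposited non-depleted columns were listed under expected counts solely since a unit check took the word size in a header for a size column, and their values are whole, so rounding changed nothing. That tag reads as size selection and is missing from the insulin-depleted headers, and all 4 headers carry the same pair of codes. Per the submitters' processing notes, cutadapt 4.8, STAR 2.7.11b and GRCm38 (mm10) were used. Which program counted reads, whether by strand, and how reads matching several places were handled is not given in the sources used here.

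CPM were computed over totals without Ins1 and Ins2. Shares carry exact Clopper-Pearson 95% intervals, and 3 counts were the detection limit. Both treat counts as independent, and low counts were mostly even numbers, so both may be too tight. Genes kept by filterByExpr were tested with edgeR 4.0.16 (TMM, glmQLFit, group alone) in R 4.3.3, with Benjamini-Hochberg adjustment and a threshold of 0.05, and the step was tested on simulated data. DESeq2 1.42.0 and limma 3.58.1, other scalings, no filter, halved counts, a replicate block and leaving out each library were alternatives. P-values measure only the spread between these libraries.

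All 55536 identifiers matched GENCODE M21, which gave coordinates and transcript sequences. Stretches of 31 bases were compared on both strands, and alignments used BLAST+ 2.17.0. A genome sequence was not used here. The members and lists were chosen with earlier results of these data known. Named genes were the members, up to 4 genes of highest mean CPM per list, Lars, annotated genes within 100 kb, the 3 nearest profiles among genes of at least 50 CPM (log2 of CPM plus 0.5), and genes sharing many stretches with a member. Others are marked as named after their values were seen, as are Farsb, Ears2, Gatc, Polr2l, Cd3eap and Malat1.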

Additional observations from a re-analysis of the deposited data

How the results depend on the processing

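With 2 libraries a group, levels are limited by the spread between libraries and not by depth. When 1 library was left out, the level of its group was that of the single library left. For Gm42418 this gave 6227 or 10630 CPM for non-depleted and 6227 or 10375 CPM for insulin-depleted libraries. For Lars2 these values were 540 or 915 and 503 or 898 CPM, and for the sum of the members 6766 or 11545 and 6731 or 11273 CPM.

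The log2 ratio of insulin-depleted to non-depleted ran from -0.44 to 0.41 for Gm42418, from -0.53 to 0.38 for Lars2 and from -0.44 to 0.41 for the sum, over the same omissions. Each omission leaves the numbers unbalanced between groups, so these ranges also hold the difference between numbers 2 and 1. For the ratio of number 2 to number 1, the omissions only gave back the ratio of 1 group or the other. In the same order these were 0.74 and 0.77, 0.76 and 0.84, and 0.74 and 0.77. With TMM-scaled totals this ratio was 0.73 for Gm42418 and 0.73 for the sum, against 0.75 and 0.76, and it was 0.73 for the sum with DESeq2 size factors. Lars2 per length ranked 1 among mitochondrial and 1 among all synthetase genes and partners with the longest coding transcript, against 2 and 4.

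The labels give the same replicate numbers in both groups without saying that a number marks a shared source. Same-numbered libraries deviated together, with a correlation of 0.87 over 10010 genes. With a replicate block, 853 genes had an unadjusted p under 0.05, against 82 without it and 781 without insulin-depleted replicate 2. With the block, 2 genes were called higher and 7 lower, against 0 and 2, and 0 members and 0 list genes were called. The members' ratios with the replicate block were -0.02 for Gm42418, -0.06 for Lars2 and -0.02 for the sum.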

Other observations

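Even numbers prevailed at the low end of the table. In the range from 2 to 9 counts, 80.9% and 80.0% of genes had an even count in the non-depleted libraries, and 84.0% and 81.4% in the insulin-depleted libraries.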
